A study of Sus scrofa with 6 samples.

Results

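The genes compared here are those of the fat cell's lipid droplet and of its hormones: PLIN1, PLIN2, CIDEA and CIDEC of the droplet surface, PNPLA2 and LIPE, which break its fat down, the adipokines ADIPOQ and LEP, and the transcription factor PPARG. They were measured in the longissimus dorsi (LDM), a glycolytic muscle of the back, and the psoas major (PMM), an oxidative muscle of the loin, as a reading of the fat that lies within the 2 muscles. Probes were taken as members when the array listed the symbol as gene name or in brackets in its description, or described a perilipin, adiponectin or cell death activator of the CIDE family. This gave 15 probes of 7 genes, and the probes of PLIN2 and CIDEA, listed under an older and a provisional name, were found through their RefSeq accession. In all, 17 probes of 9 genes were described, of 43603 probes and 3509 named genes on the array.

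LDM and PMM came from 3 female Landrace pigs, each of which gave both muscles, with 3 arrays per muscle. The pigs had not been treated and were slaughtered at 210 days of age. Their feed was removed about a day before slaughter. The tissue was whole muscle from the middle section of each, so an array mixes muscle fibres with fat, vessel and connective tissue cells, and fewer cells of a type cannot be told apart from less RNA per cell. The labels name the muscles as tissue, but their text on RNA extraction speaks of adipose tissue. Of the muscle fibre markers, the muscle actin ACTA1 was bright in both groups, at a normalized log2 signal of 9.21 to 9.93 in LDM and 9.50 to 9.89 in PMM. The dimmest of these markers, ACTN2, read 1.68 to 3.70 in LDM and 2.35 to 4.59 in PMM. Probes of different genes are not compared in level.

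A fat cell keeps its triglyceride in a droplet under a single layer of phospholipid. Perilipin 1, from PLIN1, coats this droplet and holds lipases off until adrenaline signals arrive, whereas perilipin 2 coats droplets in most cell types, muscle fibres included. CIDEC and CIDEA promote the fusion of small droplets into large ones. Adipose triglyceride lipase, from PNPLA2, takes the first fatty acid off a triglyceride, and hormone-sensitive lipase, from LIPE, takes the next, and both also work in muscle fibres. Adiponectin (ADIPOQ) and leptin (LEP) are secreted by fat cells, and PPARG is the transcription factor that drives fat cell formation. Fat stored between the fibres is the marbling of meat.

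Each value rests on a probe of 60 bases, and the probes lie in different places of their transcripts. The following are shown whole because they lie within or at the end of an open reading frame, with capitals for the first stop codon of the frame that runs longest before one.
ADIPOQ, A_72_P165401: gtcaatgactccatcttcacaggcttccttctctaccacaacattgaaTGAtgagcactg
PPARG, A_72_P146711: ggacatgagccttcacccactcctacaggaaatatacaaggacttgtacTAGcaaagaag
PLIN1, A_72_P077326: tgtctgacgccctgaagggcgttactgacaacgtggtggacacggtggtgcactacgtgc
PLIN2, A_72_P088596: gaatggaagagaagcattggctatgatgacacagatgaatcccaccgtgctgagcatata
CIDEA, A_72_P078041: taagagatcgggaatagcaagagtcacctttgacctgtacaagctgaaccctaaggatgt
PNPLA2, A_72_P178071: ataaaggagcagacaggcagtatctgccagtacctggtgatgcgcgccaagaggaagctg

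The brightest PNPLA2 probe, the LIPE probe and the brightest CIDEC probe hold the polyadenylation signal AATAAA, which stands near the 3′ end of many transcripts. A stretch of 30 bases of each is shown with the signal in capitals.
PNPLA2, A_72_P419009: caaagcagatgtAATAAAcgccacagccca
LIPE, A_72_P223552: ttgtttgttgtaAATAAAgatatttaatta
CIDEC, A_72_P015096: taaagagttcatAATAAAttacttatgctg
These are 3 of the 17 probes. The same letters stood in 12.1% of all 43603 probes on the listed strand and in 4.63% on the other strand, where 1 of the 17, the PNPLA2 probe shown, also had them. The match is a description of the probes only.

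In PMM, signals of the droplet coat genes PLIN1, CIDEC and CIDEA and of 4 of the 5 ADIPOQ probes lay below those in LDM in all 3 pairs of same-numbered arrays, whereas PNPLA2 and PLIN2 lay above. LEP and LIPE went in both directions among the pairs. PPARG was higher in PMM in all 3 pairs, but only by 0.04 to 0.10, and its mean difference was less than its standard error. With the arrays unpaired, the mean difference of PLIN2 (0.54) was also less than its standard error (0.57). On the log2 scale the mean differences, PMM minus LDM, ran from -1.01 for PLIN1 to 0.81 for the brightest PNPLA2 probe. Without pairing the arrays, limma called 0 of the 9 genes and 0 of the 17 probes at an adjusted p of 0.05, with an adjusted p of 0.9998 for each of the 9 genes. It called 0% of all 2881 genes and 0% of all 25824 probes. An unadjusted p under 0.05 was reached by 0 of the 9 genes and 108 of all genes (3.75%), and by 0 of the 17 probes and 691 of all probes (2.68%). With the replicate number as a block (the blocked fit), 4 of the 9 genes were called, PLIN1, CIDEC and CIDEA as lower and PNPLA2 as higher in PMM, where 6.35% of all genes were called, 2.33% lower and 4.03% higher. An unadjusted p under 0.05 was reached there by 6 of the 9 and by 19.8% of all genes. In the same block over all probes, 0 of the 17 member probes and 0.062% of all probes were called, 0.031% lower and 0.031% higher, while 10 of the 17 had an unadjusted p under 0.05 against 11.2% of all probes. Of the 4 blocked gene calls, 0 remained when the arrays were quantile-normalized, 0 without the arrays of replicate 1, 1 without those of replicate 2 (PLIN1, adjusted p = 0.020) and 0 without those of replicate 3. That PLIN1 call used PMM replicate 1, where its probe was not well above background. With the slide as a block 0 of the 9 were called. Each array of replicate 1 was alone on its slide, so this block takes its differences from replicates 2 and 3 only. They equal those of the replicate block without replicate 1 and are no separate check.

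Over the 17 probes the median difference was -0.31, against -0.03 over all probes. PMM was lower in 10 and higher in 7 of them. In 8 it was lower in all 3 pairs, a pattern seen in 18.5% of all probes, and in 6 it was higher in all 3 pairs, as in 17.5% of all. The 3 values of the muscles did not overlap in 1 probe lower in PMM (2.72% of all probes), which was for ADIPOQ, and in 3 probes higher in PMM (3.16% of all), which were all for PNPLA2. Taken by the brightest probe of each gene, 4 of the 9 genes were lower in all 3 pairs (20.6% of all genes) and 3 were higher (21.3%), and the muscles did not overlap in 0 genes lower in PMM (2.92% of all) and 1 gene higher (4.13%). The pair of replicate 1 gave the largest absolute difference in 14 of the 17 probes, with a median of 1.20 over the 17, and in 49.5% of all probes. In the pairs of replicates 2 and 3 that median was 0.46 and 0.45. Over all probes the medians for replicates 1, 2 and 3 were 0.37, 0.18 and 0.31, and the pair of replicate 3 was the largest in 38.5%. For replicate 1 the LDM and PMM arrays were on separate slides, while in replicates 2 and 3 both muscles shared a slide, and the part of the slide in these differences was not tested.

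**Figure D1:**
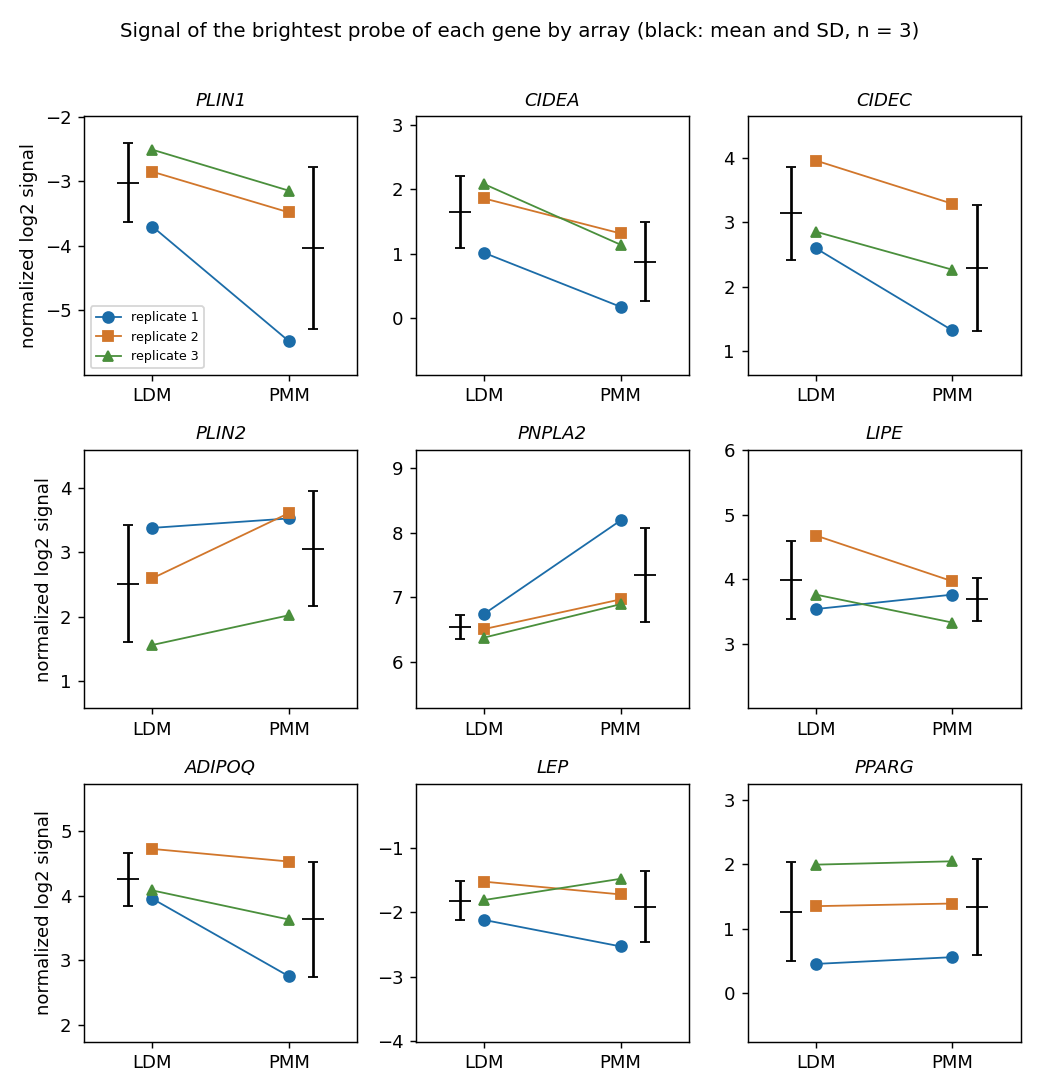
Normalized log2 signal of the brightest probe of each of the 9 genes on the LDM and PMM arrays, with lines joining arrays of the same replicate number and black bars for the mean and SD of the 3 arrays. Lines fall from LDM to PMM in all 3 replicates for PLIN1, CIDEA, CIDEC and ADIPOQ, climb in all 3 for PLIN2 and PNPLA2, and run nearly level for PPARG, and each panel spans the same height on its own range.

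PLIN1 codes for the coat protein of the fat cell's droplet. Its normalized log2 signal, which is the log2 of the spot intensity minus that of the array's 75th percentile, was -3.70, -2.86 and -2.51 for LDM and -5.48, -3.48 and -3.15 for PMM, each in the order of the replicate numbers, as are all values by array here. PMM replicate 1 stood far below the other arrays, and the groups overlapped, because LDM replicate 1 lay below the other 2 PMM arrays. The difference was -1.01 ± 0.62 (limma SE, n = 3 per muscle), or 2.02-fold higher in LDM. The exact permutation p was 0.3 over the 6 arrays, where 0.1 is the smallest possible. Every ± in this text is the SE of the fit without the block, which leaves in the variation that same-numbered arrays share. With the block the adjusted p of PLIN1 over genes was 0.018. That fit used the value of PMM replicate 1, which was not well above background. The probe was well above background on all 3 LDM arrays but on 2 of 3 PMM arrays. With PMM replicate 1 set at the lowest signal counted as well above background there (-4.77) the fold was 1.71. The pair difference of replicate 1 was then -1.06 in place of -1.78. Under normexp background correction the difference turned to 0.17, so the direction of PLIN1 was not kept under every processing. Why it turned was not tested. The normexp setting added an offset of 50 units, where the PLIN1 probe read 13.1 to 120 units, and moved the median of all probes to 0.10. Without PMM replicate 1 the PLIN1 difference was -0.29, and without replicate 1 of both muscles it was -0.63. Where 1 array is left out here, its same-numbered partner stays in. Such a value therefore also carries what same-numbered arrays share.

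CIDEC, which drives droplet fusion in white fat, had a pair of probes that moved together over the 6 arrays (r = 0.93). The brighter one read 2.60, 3.96 and 2.85 in LDM and 1.32, 3.29 and 2.27 in PMM. The array of replicate 2 was the highest in each muscle, and PMM was lower within each replicate while the groups overlapped. The difference was -0.84 ± 0.56 (limma SE), 1.79-fold higher in LDM, with a blocked adjusted p of 0.021. The other probe read -0.995, 0.31 and -0.18 in LDM and -2.16, -0.32 and -0.61 in PMM, a difference of -0.74 ± 0.54, and under normexp this was -0.22 against -0.87 for the brighter probe. Without PMM replicate 1 the differences of the brighter and the dimmer probe were -0.36 and -0.17, and without PMM replicate 2 they were -1.34 and -1.09.

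CIDEA, the related fusion protein best known from brown fat, had 1 probe. It read 1.02, 1.86 and 2.08 in LDM and 0.18, 1.32 and 1.14 in PMM. Its pair differences of -0.84, -0.54 and -0.94 varied least among the genes called as lower with the block (SD 0.21 over the 3 pairs, against 0.37 for CIDEC and 0.66 for PLIN1). The mean difference was -0.77 ± 0.43 (limma SE), 1.71-fold higher in LDM, with a blocked adjusted p of 0.023, and it was -0.68 under normexp. With 1 array left out it ran from -1.09 (without LDM replicate 1) to -0.42 (without PMM replicate 1). CIDEA was the only one of the 3 genes whose largest pair difference was not in replicate 1.

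PLIN2, the coat protein that muscle fibres also make, went the other way from PLIN1. It read 3.37, 2.59 and 1.56 in LDM and 3.52, 3.60 and 2.02 in PMM, with replicate 3 the lowest in both muscles. PMM was higher by 0.15, 1.01 and 0.46 in the 3 pairs, on average by 0.54 ± 0.57 (limma SE), 1.45-fold. It was not called without the block or with it (adjusted p = 0.16), and the difference was 0.06 without LDM replicate 3 and 1.05 without PMM replicate 3.

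PNPLA2, the lipase of the first step, was measured by 4 probes, and all 4 were higher in PMM in all 3 pairs. The brightest read 6.74, 6.50 and 6.37 in LDM and 8.19, 6.96 and 6.89 in PMM. All PMM arrays lay above all LDM arrays, and PMM replicate 1 stood above every other array by more than 1 log2 unit. The difference was 0.81 ± 0.40 (limma SE), 1.75-fold, with an exact permutation p of 0.1, the smallest possible, and a blocked adjusted p of 0.045. Without PMM replicate 1 it was 0.39.

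The probe A_72_P076816 read -0.44, -0.26 and -0.70 in LDM and 0.84, 0.20 and -0.25 in PMM. The probe A_72_P123201 read -1.05, -0.93 and -0.98 in LDM and -0.03, -0.46 and -0.83 in PMM. Neither overlapped between the muscles, with differences of 0.73 ± 0.36 and 0.55 ± 0.31. The probe A_72_P178071, whose sequence is given above, read 0.21, -1.09 and -0.08 in LDM and 1.76, -0.76 and 0.22 in PMM, and its groups overlapped, since LDM replicate 2 and PMM replicate 2 were both low. Its difference was 0.72 ± 0.63, with pair differences of 1.55, 0.33 and 0.30. Without PMM replicate 1 alone it was 0.05, while the other 3 probes kept 0.34 to 0.44. Without replicate 1 of both muscles it was 0.31, and the other 3 probes stood at 0.31 to 0.49. Between the 4 probes r over the 6 arrays was 0.57 to 0.97, and under normexp all 4 stayed positive, from 0.39 to 0.56.

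LIPE, the lipase of the next step, did not follow PNPLA2. It read 3.54, 4.68 and 3.76 in LDM and 3.76, 3.97 and 3.33 in PMM, so that PMM was higher in replicate 1 by 0.22 and lower in replicates 2 and 3 by -0.71 and -0.43. The mean difference of -0.31 ± 0.38 (limma SE) was smaller than this unblocked error, and without LDM replicate 2 it was 0.04. With the block the standard error over genes was 0.21, below the size of the difference, and the adjusted p was 0.50.

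**Figure D2:**
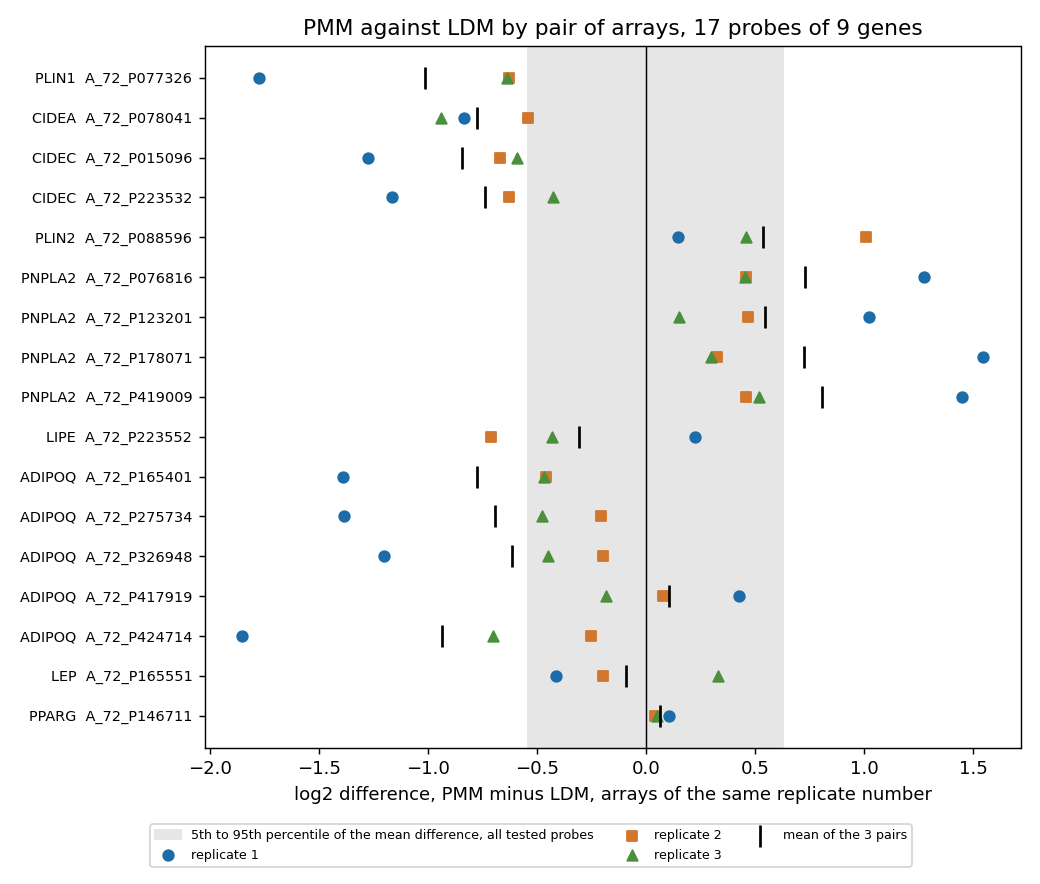
Difference in normalized log2 signal, PMM minus LDM, of each of the 17 probes within arrays of the same replicate number (coloured points), with the mean of the 3 pairs (black bar) and a grey band for the 5th to 95th percentile of the difference over all 25824 tested probes, -0.54 to 0.63. The means of PLIN1, CIDEA, both CIDEC probes and 4 of 5 ADIPOQ probes lie left of the band, those of 3 of 4 PNPLA2 probes lie right of it, and the replicate 1 points are the farthest out in 14 of 17 probes.

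ADIPOQ, for the hormone adiponectin, was listed for 5 probes, of which 4 moved together. The brightest of them read 3.95, 4.73 and 4.08 in LDM and 2.75, 4.53 and 3.63 in PMM. PMM was lower in each pair and by far the most in replicate 1 (-1.20, -0.20 and -0.45), on average by -0.62 ± 0.47 (limma SE), 1.53-fold higher in LDM. It was not called with the block (adjusted p = 0.12), and without PMM replicate 1 the difference was -0.17.

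A further probe, A_72_P275734, shares 11 bases with the brightest and is no separate reading of the transcript. It read 3.96, 4.68 and 4.05 in LDM and 2.58, 4.47 and 3.57 in PMM. The probe A_72_P165401, which spans the stop codon shown above, read 0.05, 1.39 and 0.49 in LDM and -1.34, 0.93 and 0.02 in PMM, a difference of -0.77 ± 0.60. In A_72_P424714 the 3 LDM values of -1.25, -1.27 and -1.37 were close together and all above the PMM values of -3.10, -1.52 and -2.07. Its difference was -0.93 ± 0.42, with an exact permutation p of 0.1, and was -0.50 without PMM replicate 1 and -0.21 under normexp. Between these 4 probes r was 0.86 to 0.998.

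The remaining probe, A_72_P417919, was designed on an assembled consensus described as partly like adiponectin. It read -0.02, 0.03 and 0.89 in LDM and 0.41, 0.11 and 0.71 in PMM, a difference of 0.11 ± 0.36. Over the 6 arrays its r with the other 4 was -0.37 to -0.28, so it did not read with the ADIPOQ probes. Its description leaves it a member by the rule.

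**Figure D3:**
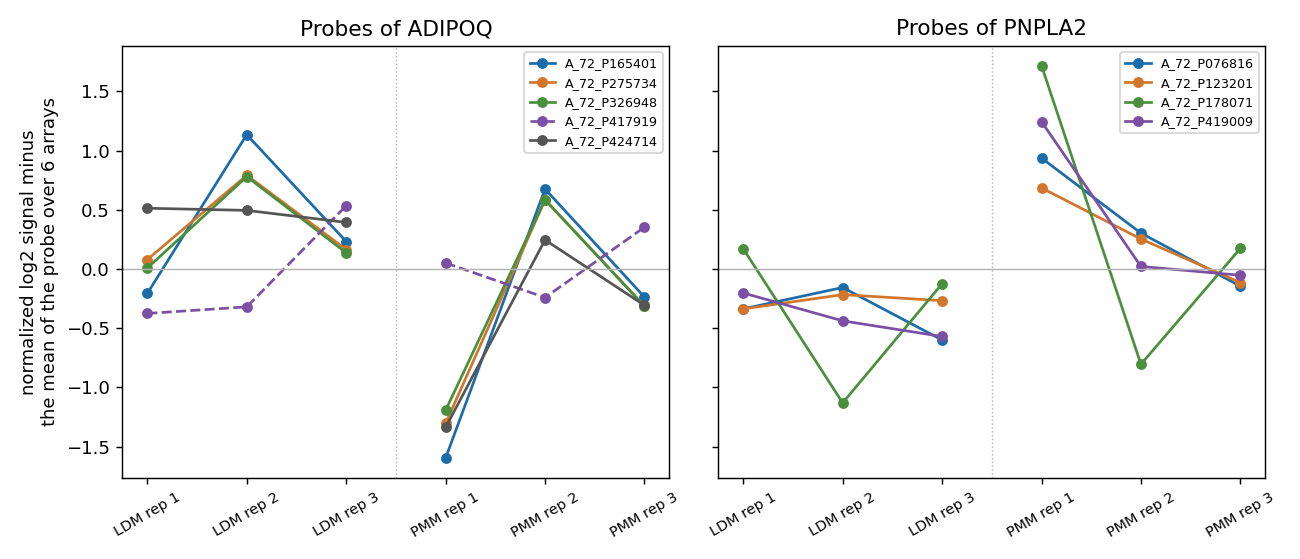
Normalized log2 signal of each ADIPOQ probe (left) and PNPLA2 probe (right) on the 6 arrays, minus the mean of that probe, with lines joining arrays only to guide the eye. Of the ADIPOQ probes 4 dip on PMM replicate 1 and the consensus probe (dashed) does not, and the 4 PNPLA2 probes peak on PMM replicate 1.

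LEP, for the hormone leptin, read -2.12, -1.53 and -1.81 in LDM and -2.53, -1.73 and -1.48 in PMM. PMM was lower in replicates 1 and 2 and higher in replicate 3, and the mean difference was -0.09 ± 0.37 (limma SE), with an adjusted p of 0.87 with the block. Its sign turned under normexp (0.27), with the slide as a block (0.07), without PMM replicate 1 (0.22) and without LDM replicate 2 (0.05), so no direction can be given. PPARG read 0.46, 1.35 and 1.99 in LDM and 0.56, 1.39 and 2.05 in PMM. Here the replicates differed by over 1 log2 unit in each muscle, in the same order, while the pairs differed by 0.10, 0.04 and 0.05. The mean difference was 0.07 ± 0.51 (limma SE), and -0.003 under median centring. With the block the standard error was 0.18, the adjusted p 0.91.

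The mean of PLIN1, CIDEC, CIDEA, ADIPOQ and LEP was 0.35, 1.23 and 0.94 in LDM and -0.75, 0.78 and 0.48 in PMM, lower in PMM by -1.10, -0.45 and -0.46 in the 3 pairs. Of the other members, PNPLA2 ran opposite to this mean over the 6 arrays (Pearson r = -0.93), PLIN2 had r = -0.48, LIPE 0.48 and PPARG 0.60. These values describe 6 arrays that share 3 replicate numbers and carry no test. Outside the members, the genes most like this mean among 2865 were PSAT1 (r = 0.987), a serine synthesis enzyme, UPK1B (0.979), a urothelial membrane protein, UGT1A6 (0.975), a glucuronidation enzyme, SAL1 (0.975), a pig lipocalin, and EGFR (0.973), the receptor of epidermal growth factor. Each of these 5 was lower in PMM in all 3 pairs, as were 20.6% of all genes, with log2 differences from -1.03 for UGT1A6 to -0.27 for EGFR. They were picked for likeness to a mean that is lower in all 3 pairs, so their direction is no separate result. Without the block limma called 0 of all 2881 genes, these 5 included.

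Other genes of the same pathways were read from lists, with a median difference over all genes of -0.001 for comparison. In none of these lists was a gene called without the block, and with the block 0 of all genes were called after quantile normalization or without the arrays of replicate 3, so the blocked calls below rest on the arrays and scaling used. In the droplet coat and assembly list 8 of 14 genes were tested, 3 higher and 5 lower in PMM with a median of -0.10, and with the block PLIN1, CIDEC and CIDEA were called as lower and none as higher. Beside PLIN2, the caveolar protein CAV1 stood at 0.33. PLIN3, a coat protein of many cell types, stood at -0.08 and CIDEB at -0.11.

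Lipolysis genes had a median of 0.45 over 7 of 12, with 5 higher and 2 lower in PMM. With the block 3 were called as higher and 0 as lower: PNPLA2, AQP7 and ADRB3. AQP7, the channel through which glycerol leaves fat cells and muscle fibres, read -2.42, -3.14 and -4.09 in LDM and -0.28, -1.68 and -2.59 in PMM. It was higher within each replicate, by 1.70 ± 0.64 (limma SE), 3.25-fold, with a blocked adjusted p of 0.00032, and by 0.85 under normexp and 1.08 without PMM replicate 1. The adrenergic receptor ADRB3, well above background on 5 of 6 arrays, read -5.53, -4.74 and -5.28 in LDM and -4.66, -3.97 and -4.66 in PMM, a difference of 0.75 ± 0.35 with a blocked adjusted p of 0.024. That fit used the value of LDM replicate 3, which was not well above background. With that array at the lowest signal counted as well above background there (-4.53) the difference was 0.50, and PMM was lower in the pair of replicate 3 by -0.13. ABHD5, the activator of the PNPLA2 lipase, was at 0.03.

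Fatty acid capture had a median of 0.37 over 6 of 8 genes, 5 higher and 1 lower in PMM. LPL, the lipase that frees fatty acids from blood lipoproteins, was the gene called with the block. It read 2.35, 2.97 and 3.09 in LDM and 4.39, 3.66 and 3.75 in PMM, with no overlap, a difference of 1.13 ± 0.34 (limma SE) and a blocked adjusted p of 0.015. The fatty acid transporters CD36 and SLC27A1 stood at 0.66 and 0.58 and were not called, nor was the lipoprotein receptor VLDLR at -0.56. FABP4, the fatty acid binder that fat and endothelial cells share, was at 0.11.

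Among adipokines and their receptors 9 of 10 genes were tested, 4 higher and 5 lower, with a median of -0.09. RETN, for resistin, well above background on 5 of 6 arrays, stood at -0.96 through 1 array, since LDM replicate 3 read -2.16 and the other 5 arrays between -5.94 and -4.45. The adiponectin receptors ADIPOR1 and ADIPOR2 were at -0.25 and 0.24. Adipogenic regulators had a median of -0.28 over 7 of 12, 2 higher and 5 lower, with 0 called, and SREBF1, CEBPA and NR1H3 stood at -0.44, -0.43 and -0.40. Triglyceride synthesis had a median of 0.07 over 4 of 8, 2 higher and 2 lower, with 0 called, and ACSL1, which activates fatty acids, stood at 0.68. With 1 array left out the medians of lipolysis (0.26 to 0.58) and fatty acid capture (0.22 to 0.56) stayed positive, and those of the other 4 pathway lists took both signs. Under normexp the droplet coat median turned to 0.13.

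**Figure D4:**
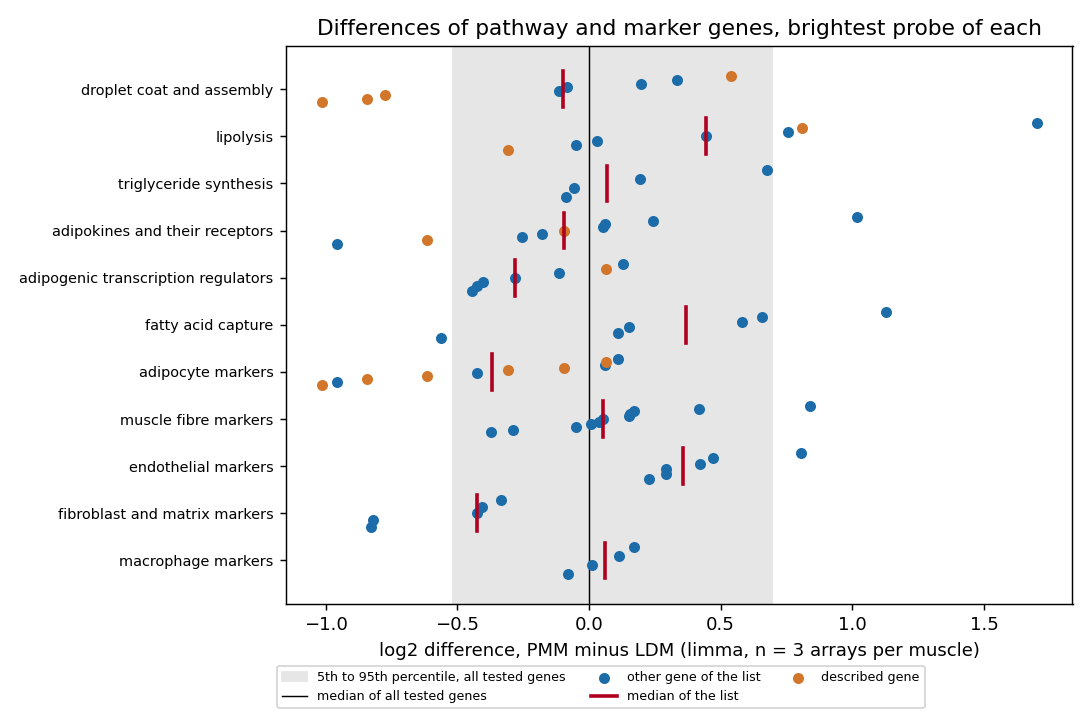
Log2 difference, PMM minus LDM, of the tested genes of each pathway and marker list (points, 1 probe per gene, orange for the 9 described genes), with the list's median (red bar), the median of all genes (black line) and a grey band for the 5th to 95th percentile over all 2881 genes, -0.51 to 0.70. Medians are above 0.3 for lipolysis, fatty acid capture and endothelial markers and below -0.3 for adipocyte and fibroblast and matrix markers.

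Markers of the cell types a muscle sample can hold were read in the same way. Of 10 adipocyte markers, 6 of them among the 9 genes, 3 were higher and 7 lower in PMM (median -0.37), with 2 called as lower with the block. This median was -0.08 under normexp, -0.20 over the markers well above background on all 6 arrays, and -0.58 to -0.17 with 1 array left out (without LDM replicate 1 and without LDM replicate 2). Their summed signal, in multiples of each array's 75th percentile, was 160 to 526 in LDM and 178 to 477 in PMM, and within the pairs PMM over LDM was 1.12, 1.02 and 0.91, a sum carried by the bright probes of FABP4 and CFD. None of the 10 was at 0, and PLIN1 and RETN were the 2 not well above background on all 6 arrays. All 5 fibroblast and matrix markers tested were lower in PMM in all 3 pairs (median -0.43), and the collagens COL1A1 and COL1A2 were called with the block at -0.82 and -0.83. Under normexp these were -0.07 and -0.38, and without LDM replicate 3 they were -0.32 and -0.34. Their summed signal was 102 to 228 in LDM and 75.2 to 160 in PMM.

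All 6 endothelial markers were higher in PMM (median 0.36), 4 of them in all 3 pairs and 0 called. With 1 array left out this median ran from 0.04 (without LDM replicate 1) to 0.73 (without LDM replicate 3), while those of the muscle fibre and macrophage lists took both signs. Their sum was 55.5 to 171 in LDM and 97.8 to 169 in PMM. Of 11 muscle fibre markers 8 were higher (median 0.05), with a sum of 4300 to 6828 in LDM and 5049 to 7829 in PMM. With the block 1, ACTN2, was called at 0.84, with pair differences of 0.89, 0.96 and 0.67. Its mean difference was 0.16 without PMM replicate 1 alone and 1.49 without LDM replicate 1 alone. Of 4 macrophage markers 3 were higher (median 0.06), with a sum of 9.53 to 37.96 in LDM and 11.6 to 33.1 in PMM. No red blood cell marker was matched to a probe. The part of these cell types in the differences of the 9 genes was not tested.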

How the data were processed

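RNA of LDM and PMM was hybridized to one-colour Agilent arrays (Cy3), 3 per muscle. The authors deposited linear spot intensities from Agilent Feature Extraction, background-subtracted and not normalized between arrays. A value table for all 6 arrays held these intensities too, within 0.005 units. Between 58.5% and 72.4% of spots per array were well above background, the 75th percentile was 593 to 881 units, 6 to 161 outlier spots were left out and 0 were saturated. The number of arrays limits the precision. Coordinates are not given, since no genome build was named for the probes.

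Spots of a probe were averaged, log2 taken and the log2 of the array's 75th percentile subtracted. Probes well above background on all 3 arrays of either muscle with at least 2 values per muscle were tested with limma 3.58.1 in R 4.3.3 (PMM minus LDM, two-sided, Benjamini-Hochberg adjustment over 25824 probes, or over 2881 genes by their brightest probe, threshold 0.05). The fit was checked on simulated data. Names came from RefSeq accessions (3053 probes), gene numbers (1232) or the files (811, and 75 more by an older name), and 38432 probes had none. Named were all members, of each list the genes called and up to 4 with the largest difference (markers up to 3), and the 5 genes most like the mean of PLIN1, CIDEC, CIDEA, ADIPOQ and LEP. ABHD5, ADIPOR1, ADIPOR2, CIDEB, FABP4, CFD, PLIN3 and ACTA1 were named for their role where they fell outside this rule, after their values were seen. A gene of the lists is not reported here. The members, lists and rule were chosen with earlier results of these data known.

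Replicate numbers were taken to pair the arrays because the deviations of same-numbered arrays from their muscle's mean correlated at 0.62, 0.70 and 0.56, all above 0.1. Both muscles came from each of 3 pigs, but no source used here says that a number is a pig, and the number coincides with the scan day. P-values of the fit without the block measure the spread between these arrays within a muscle. Those of the blocked fit measure the spread that is left once what same-numbered arrays share is taken out.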

Additional observations from a re-analysis of the deposited data

How the results depend on the processing

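Without the replicate block, 0 of the 17 probes and 0 of the 9 genes were called under quantile normalization, median centring, another percentile, normexp, the value table, other filters on detection, outlier spots kept, the slide as a block and each array left out. For the probes, the replicate block also gave 0. Over genes the replicate block called 4 members, and the replicate block without replicate 2 of both muscles called 1. The replicate block with quantile normalization and the replicate block without replicate 1 or 3 called 0. These 4 combinations were chosen after seeing the data. In the count of all features, the replicate block called 183 genes and 16 probes and the slide block 108 genes and 604 probes, against 0 and 0 without a block. Without replicate 1, 2 or 3 the block called 63, 134 and 0 genes and 153, 0 and 0 probes, and after quantile normalization 0 and 0. Unpaired, quantile normalization called 7 probes, median centring 9, and normexp, LDM replicate 2 left out and PMM replicate 1 left out 1 each.

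The median difference over the 17 probes, -0.31, was 0.0605 under normexp, which moved the median of all probes to 0.10, and -0.10 in the replicate block without replicate 2. It ranged from -0.53 to -0.0251 with 1 array left out, the extremes being without LDM replicate 1 and without LDM replicate 2. In such a fit the same-numbered partner stays in, so the ranges with 1 array left out also carry what same-numbered arrays share. Of 339 probe differences under alternatives 0 were called, with 0.147 the lowest adjusted p over all 339 (CIDEA with the slide as a block, which kept its sign). The sign changed in 15. These were LEP (normexp 0.27, slide block 0.0657, block without replicate 1 0.0657, and -0.31 to 0.22 with 1 array left out), PLIN1 (normexp 0.17), PPARG (median centring -0.00329, and -0.34 to 0.45 with 1 array left out), LIPE (-0.53 to 0.0365 with 1 array left out) and the ADIPOQ consensus probe (slide block and block without replicate 1 -0.0512, and -0.0527 to 0.40 with 1 array left out). LEP turned in the gene fit under the same blocks (0.0657). The slide block and the block without replicate 1 give the same differences, because the slide block leaves replicate 1 without a pair. The cause of the sign changes was not tested. With 3 arrays per muscle an exact permutation cannot give a p below 0.1. PLIN1 and LEP, whose directions turned under normexp, were measured by probes dimmer than the array's 75th percentile. ADIPOQ probe A_72_P424714 and PNPLA2 probe A_72_P123201 were also dimmer than it on every array and kept their sign under normexp (-0.21 and 0.40). The part of dimness in these changes was not tested.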
